A study of Mus musculus with 9 samples.

Results

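The immediate early genes followed here were Fos, Fosb, Jun, Junb, Jund, Egr1, Egr2, Nr4a1, Ier2 and Dusp1. They were chosen by name, and every probe set to which the platform annotation gave 1 of these 10 symbols was taken, 13 of the 12488 on the array. Of the 13, 11 passed the filter on low values, and each of the 10 genes, of 8251 named by 1 symbol on the array, kept at least 1 probe set. The arrays were Affymetrix U74Av2, hybridised with total RNA from the forebrain of male C57BL mice, an inbred strain whose age the labels give as 4 weeks. The labels disagree on whether the right or the left side was used. They give 4 weeks for the treatment as well, and whether the age is that at its start or its end is not settled here. Clozapine, an atypical antipsychotic, was given in the drinking water at 12 mg/kg/day for 4 weeks, haloperidol, a typical antipsychotic that blocks dopamine D2 receptors, at 1.6 mg/kg/day for the same time, and control mice were untreated. Each group held 3 arrays from 3 separate animals, with no pooling. All values are GCRMA log2 values as deposited, and replicate numbers are those of the labels.

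Immediate early genes are transcribed within minutes of a stimulus without the need for new protein. In neurons, calcium entry and kinase signalling act on transcription factors already present, among them CREB, which binds the TGACG core of the cAMP response element, and the serum response factor, which binds the CArG box. Their RNAs are short-lived, so that the level in frozen tissue reflects activity shortly before death, and Fos and Egr1 are widely used as markers of recently active neurons. In the striatum, a single dose of a D2 blocker such as haloperidol is known to induce Fos, whereas the samples here came from mice that drank the drugs for weeks. Forebrain tissue mixes neurons with glia and vessels, and fewer cells of a type cannot be told apart from less RNA per cell.

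The 250 bases before the annotated start of 5 of the genes are printed to show the stretch searched for CREB and serum response elements. The 5 take part in pairs whose values are described most fully, and other members of such pairs are not shown. The sequences are from RefSeq on GRCm38.p6, written 5′ to 3′ on the gene's strand. Capitals mark TGACG on either strand (read as CGTCA where it lies on the other) and the CArG box.
Fos (chr12:85473640-85473889, plus strand): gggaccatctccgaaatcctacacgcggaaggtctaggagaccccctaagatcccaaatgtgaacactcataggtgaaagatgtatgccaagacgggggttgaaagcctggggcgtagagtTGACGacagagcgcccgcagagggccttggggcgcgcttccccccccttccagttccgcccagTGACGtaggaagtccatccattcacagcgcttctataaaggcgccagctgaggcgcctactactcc
Egr2 (chr10:67537619-67537868, plus strand): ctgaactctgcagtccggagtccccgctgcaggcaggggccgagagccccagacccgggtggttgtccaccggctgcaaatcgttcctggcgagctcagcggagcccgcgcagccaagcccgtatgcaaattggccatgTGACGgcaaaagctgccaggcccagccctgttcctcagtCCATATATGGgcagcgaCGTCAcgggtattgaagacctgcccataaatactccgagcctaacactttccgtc
Junb (chr8:84978749-84978998, minus strand): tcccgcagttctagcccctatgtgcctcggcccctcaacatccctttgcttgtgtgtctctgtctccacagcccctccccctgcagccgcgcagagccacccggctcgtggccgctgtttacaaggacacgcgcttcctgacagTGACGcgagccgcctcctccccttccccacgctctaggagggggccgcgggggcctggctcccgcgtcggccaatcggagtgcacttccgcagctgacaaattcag
Nr4a1 (chr15:101266596-101266845, plus strand): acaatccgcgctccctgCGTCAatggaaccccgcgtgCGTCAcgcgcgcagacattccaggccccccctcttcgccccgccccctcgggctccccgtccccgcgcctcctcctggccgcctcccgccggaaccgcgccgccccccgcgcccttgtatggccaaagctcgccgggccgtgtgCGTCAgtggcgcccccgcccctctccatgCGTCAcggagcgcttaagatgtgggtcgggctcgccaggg
Dusp1 (chr17:26508473-26508722, minus strand): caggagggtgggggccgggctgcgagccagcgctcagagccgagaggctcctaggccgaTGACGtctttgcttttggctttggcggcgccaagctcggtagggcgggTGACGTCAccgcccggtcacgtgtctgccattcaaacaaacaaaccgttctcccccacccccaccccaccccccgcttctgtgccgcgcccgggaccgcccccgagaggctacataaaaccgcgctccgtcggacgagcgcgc
The core TGACG lay in 6 of the 8 windows searched, those of Fos, Fosb, Junb, Egr2, Nr4a1 and Dusp1, and in 17.8% of 32851 promoter windows of the same length and genome. In Fos it began 129 and 66 bases before the start, in Junb 106, in Egr2 111 and 55, and in Nr4a1 233, 213, 69 and 40. The full palindrome TGACGTCA was found in Dusp1 alone of the 8, beginning 143 bases before the start and overlapping 2 of its 3 TGACG matches. It was in 1.55% of all windows. A CArG box was found in Egr2 alone of the 8, 72 bases before the start used, the middle of 5 listed ones, and in 1.47% of all windows. Bases beyond these 250 were not searched, and Egr1 and Ier2 were not among the 8, so elements elsewhere would be missed. The windows of Jun and Jund held none of the 3 motifs. A match describes the letters only.

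Some arrays stood apart before any gene was considered. Control replicate 3 had a score of 37.5 on the first principal component, which held 50.1% of the variance, against -19.8 to 7.0 on the other 8 arrays. It also had the largest gap between 3′ and 5′ control probe sets, 1.73 log2 units against 0.81 to 1.46. Clozapine 2, haloperidol 2 and control 3, 1 array of each group, had the highest signal on the antisense control probe sets of Actb and Gapdh, with means of 6.56, 7.29 and 5.69 against 4.42 to 5.0 on the other 6. Haloperidol 3 carried pituitary hormone RNA, with a mean of 9.68 over Gh, Prl, Pomc, Cga and Tshb (5 of 5 listed) against 2.36 to 2.54 elsewhere. The array medians were 4.02 to 4.07 in the haloperidol group and 4.11 to 4.21 over the clozapine and control groups. The neuronal markers Snap25, Syt1, Nefl and Thy1 were measured on every array, with means of 10.33 to 11.27. The part that these features played in the results was not tested.

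Fos, a subunit of the AP-1 transcription factor, was high on 1 array of each group. It read 9.26, 9.08 and 9.83 on the clozapine arrays, 9.94, 9.14 and 9.10 on the haloperidol arrays and 8.98, 9.14 and 9.55 on the control arrays. Clozapine 3, haloperidol 1 and control 3 were the 3 highest, and the groups overlapped. The means were 9.39 ± 0.39 with clozapine, 9.39 ± 0.47 with haloperidol and 9.22 ± 0.30 in controls (SD, n = 3 each). Clozapine minus control was 0.17 log2 units (95% confidence interval -0.49 to 0.83) and haloperidol minus control 0.17 (-0.49 to 0.82). The difference between the drugs was 0.0011 (-0.66 to 0.66), so that differences inside those bounds could not be told from 0 with 3 animals a group. Without control 3 both drugs gave 0.33, and within the 6 arrays of low antisense control signal they gave 0.49 and 0.46. The other Fos probe set read 2.12 to 2.38 on all arrays, below the filter, and did not follow the named one.

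Fosb, the Fos relative whose truncated product builds up under repeated stimulation, had a low and steady signal. It read 4.91, 4.38 and 4.66 with clozapine, 4.74, 4.64 and 4.61 with haloperidol and 4.69, 4.73 and 4.68 in controls. The clozapine animals spanned the whole range, and the controls lay closest together. Clozapine minus control was -0.05 (-0.35 to 0.25), and haloperidol minus control was -0.03 (-0.33 to 0.27).

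The Jun proteins are the partners with which Fos proteins form AP-1, and Junb and Jund can also restrain Jun. Jun read 7.16, 6.89 and 7.07 with clozapine, 7.32, 7.36 and 6.91 with haloperidol and 7.29, 7.14 and 7.17 in controls. It differed by -0.16 with clozapine (-0.48 to 0.16) and by -0.0018 with haloperidol (-0.32 to 0.31). Both intervals include 0, and haloperidol 3 was the low array of its group.

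Jund, the most constantly expressed of the 3 Jun genes in most tissues, read 11.14, 11.25 and 11.31 with clozapine, 11.23, 11.17 and 10.83 with haloperidol and 11.12, 11.76 and 11.45 in controls. Controls 2 and 3 lay above all 6 treated arrays, and control 1 lay among them. Haloperidol minus control was -0.36 ± 0.17 (SE), the largest difference from controls among the 10 genes, with an adjusted p of 0.540 by limma, and clozapine minus control was -0.21 ± 0.17. Without control 2 the values were -0.21 and -0.05, and without haloperidol 3 the haloperidol value was -0.24. Controls 2 and 3 also had the largest 3′ to 5′ gaps, 1.46 and 1.73, whose part was not tested.

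Junb was low on 1 array of each group. It read 7.19, 6.43 and 6.89 with clozapine, 6.98, 6.41 and 6.84 with haloperidol and 7.19, 6.85 and 6.46 in controls. The low array of each group, clozapine 2, haloperidol 2 and control 3, was the one with high antisense control signal. Clozapine minus control was 0.0043 (-0.59 to 0.60) and haloperidol minus control -0.09 (-0.68 to 0.51). The other Junb probe set read 5.64, 5.36 and 5.36 with clozapine, 5.47, 4.82 and 5.60 with haloperidol and 5.98, 5.01 and 2.50 in controls, and its differences of 0.96 and 0.80 rested on control 3.

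Egr1 and Egr2 encode zinc finger transcription factors that bind the same GC-rich element. Egr1, which is abundant in unstimulated cortex, was the steadiest gene of the 10. It read 10.29, 10.47 and 10.34 with clozapine, 10.50, 10.34 and 10.23 with haloperidol and 10.30, 10.31 and 10.37 in controls. Its residual SD of 0.0989 lay at percentile 17.1 of all tested probe sets, and its intervals were the narrowest of the 10, 0.04 (-0.18 to 0.26) with clozapine and 0.03 (-0.19 to 0.25) with haloperidol. Differences of Egr1 above 0.26 or below -0.19 log2 units lay outside both intervals.

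Egr2 read 6.30, 6.96 and 6.93 with clozapine, 7.16, 6.43 and 6.47 with haloperidol and 6.37, 6.60 and 6.61 in controls. Its 3 highest arrays were haloperidol 1, clozapine 2 and clozapine 3, above every control, but 1 clozapine and 2 haloperidol arrays lay below 2 of the controls. Clozapine minus control was 0.21 (-0.35 to 0.76) and haloperidol minus control 0.16 (-0.39 to 0.72). Without haloperidol 1 the haloperidol value was -0.07.

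Nr4a1, an orphan nuclear receptor also called Nur77, is induced by dopamine D2 blockers such as haloperidol in the striatum of rodents. It read 8.30, 8.90 and 8.25 with clozapine, 8.34, 8.73 and 8.30 with haloperidol and 7.76, 8.31 and 8.86 in controls. The controls alone covered nearly the whole span of the treated values. Clozapine minus control was 0.17 (-0.50 to 0.84) and haloperidol minus control 0.14 (-0.53 to 0.82). Without control 3 the values were 0.45 and 0.42, and without control 1 they were -0.10 and -0.13. Without clozapine 2 the clozapine value was -0.036, so that leaving out 1 array could turn the sign.

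Ier2, a nuclear protein of the immediate early response, and Dusp1, the phosphatase that switches off MAP kinases, were the 2 of the 10 genes whose clozapine and haloperidol arrays did not overlap. Ier2 read 6.03, 5.72 and 5.82 with clozapine, 5.70, 4.74 and 5.62 with haloperidol and 5.34, 5.95 and 5.65 in controls. Dusp1 read 9.05, 9.05 and 9.12 with clozapine, 9.04, 8.38 and 8.84 with haloperidol and 9.21, 8.96 and 8.79 in controls. For both genes the lowest of the 3 clozapine arrays lay just above the highest of the 3 haloperidol arrays, and haloperidol 2 was the lowest of all 9. Clozapine arrays lay wholly above haloperidol arrays for 15.2% of all tested probe sets and wholly below for 1.96%, 17.1% in all. The 2 of 10 genes are thus near the share over all, and the haloperidol arrays had the lower medians. Clozapine minus haloperidol was 0.50 ± 0.27 for Ier2 and 0.32 ± 0.18 for Dusp1 (SE), both with an adjusted p of 0.915 by limma. Without haloperidol 2 the differences were 0.19 and 0.13. Against controls, Ier2 differed by 0.21 with clozapine (-0.41 to 0.82) and by -0.30 with haloperidol (-0.91 to 0.32), and Dusp1 by 0.09 (-0.32 to 0.49) and -0.23 (-0.64 to 0.17).

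**Figure D1:**
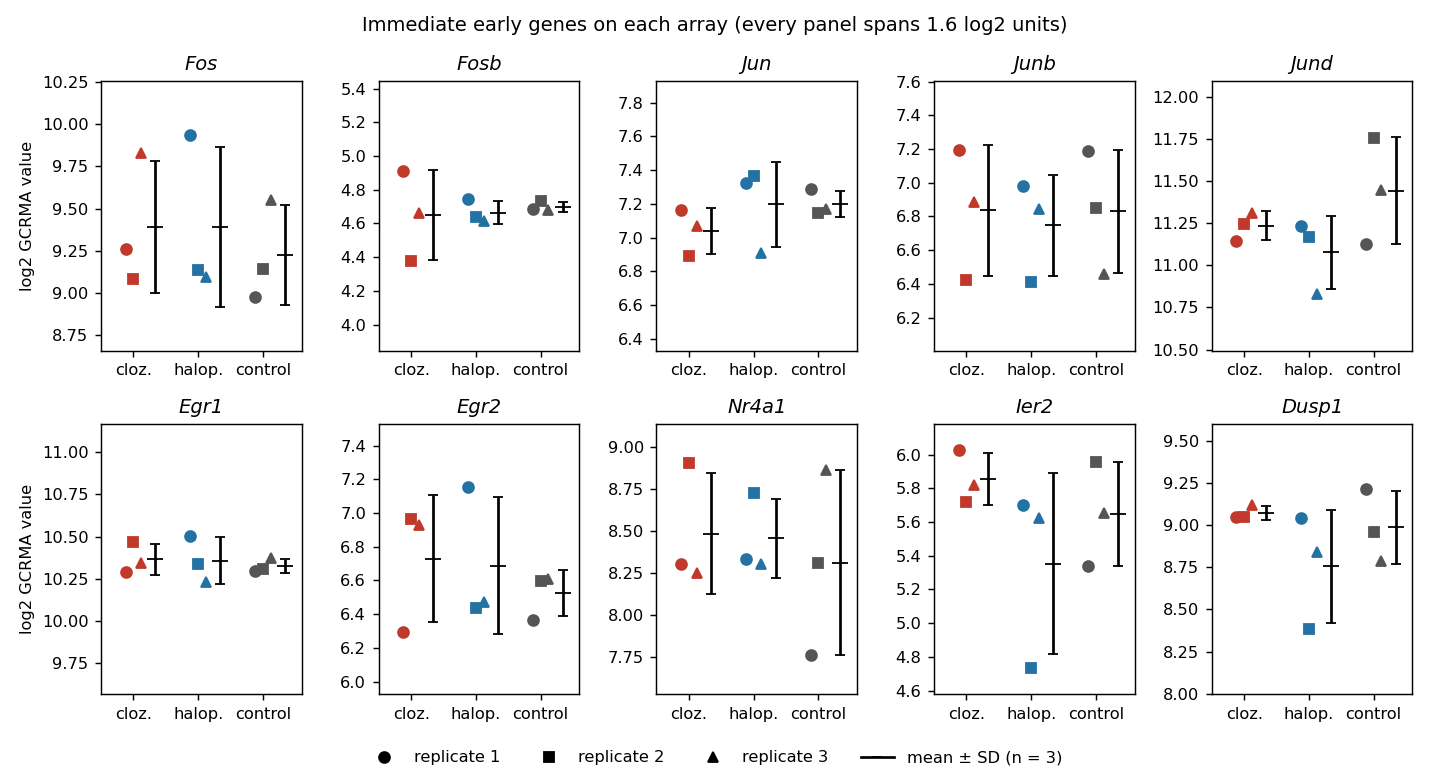
Log2 GCRMA values of the 10 genes on the 9 arrays (vertical axes, each spanning the same 1.6 log2 units), by group, with the replicate shown by the marker and bars giving the mean ± SD of 3 animals. The groups overlap in every panel except clozapine and haloperidol for Ier2 and Dusp1, and the spread within a group is widest for Fos, Nr4a1, Junb and Ier2.

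Across the 10 genes, no probe set passed limma's adjusted threshold of 0.05 in any contrast or in the moderated F test over the 3 groups. The same held for the whole table, where 0 of 7453 probe sets (0%) were called each time. At an unadjusted p under 0.05, 0 members were found with clozapine against control, where 0.939% of all probe sets were, 0 with haloperidol against control, where 9.12% were, and 0 between the drugs, where 3.64% were. With clozapine 7 of the 10 genes lay above the controls, where 49.5% of all probe sets did, with a median of 0.06 against -0.0013 over all. With haloperidol 4 of 10 lay above, where 46.4% of all did, with a median of -0.02 against -0.02 over all. With each array centred on its median, the haloperidol values of Fosb, Jun and Junb turned to 0.070, 0.10 and 0.018. Between the drugs 8 of 10 were higher with clozapine, as were 56.4% of all, and 5 of these 8 turned negative with that centring. The F test gave 0 members and 3.37% of all probe sets at an unadjusted p under 0.05. The contrasts with each drug share their controls. No member's arrays were wholly above or wholly below the controls. Among all probe sets, 1.27% lay wholly above and 2.16% wholly below with clozapine, 3.43% in all, and 2.29% above and 19.4% below with haloperidol, 21.7% in all. The drug doses differ, and the contrast between the drugs is therefore one of these 2 regimens.

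**Figure D2:**
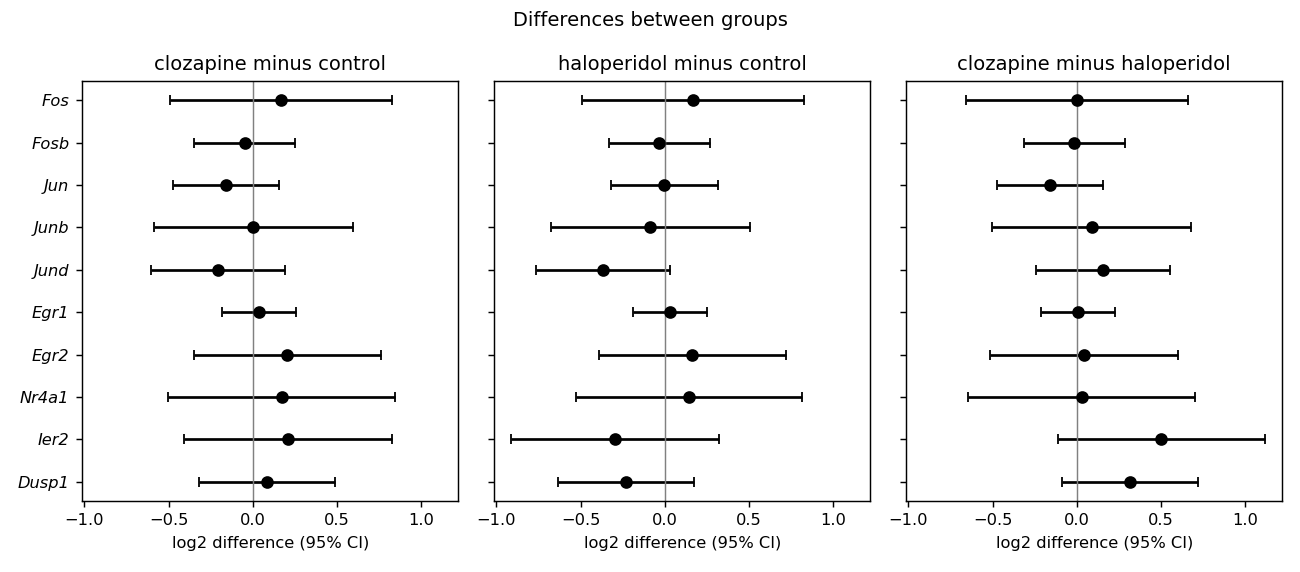
Log2 differences (horizontal axes) of the 10 genes, in panels for each drug minus control and for clozapine minus haloperidol, with 95% confidence intervals from limma. Every interval includes 0, and the largest differences are 0.50 for Ier2 between the drugs and -0.36 for Jund with haloperidol.

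The spread between animals of 1 group differed widely between the genes. Residual SDs were 0.403 log2 units for Nr4a1, 0.394 for Fos, 0.368 for Ier2, 0.352 for Junb and 0.329 for Egr2, all between percentiles 77.8 and 86.3 of the tested probe sets, whose median was 0.196. Dusp1 and Jund, at 0.231 and 0.227, lay near percentiles 59.2 and 58.1. Jun and Fosb, at 0.172 and 0.160, lay below the median with Egr1. Fos and Egr1, both used as activity markers, stood near opposite ends of the order.

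Covariation among the 9 animals was examined over all arrays and as deviations from the group means. All 9 other genes had a positive Pearson r with Fos, as did 41.8% of all tested probe sets, with a median of 0.21 against -0.10 over all. Most of these values were small. Leaving out 1 array turned r negative for 4 of the 9, Jun, Junb, Nr4a1 and Dusp1, the Spearman rho of Dusp1 was -0.17, and in the 6 arrays of low antisense control signal r of Junb was -0.24. Egr2 had the highest, r = 0.69 (Spearman rho = 0.45), with an exact permutation p of 0.0369 and an adjusted p of 0.332 over the 45 pairs of members computed. Egr1 followed at 0.52 (rho = 0.45, exact permutation p of 0.141, adjusted 0.716), and the other 7 lay between 0.071 for Junb and Nr4a1 and 0.29 for Ier2. On the whole table Egr2 ranked 589 and Egr1 1196 of 7452 probe sets by their r with Fos, so that 7.90% and 16.0% of all probe sets were at least as close to Fos.

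The relation of Fos with Egr2 rested on its 2 highest arrays, and that with Egr1 on haloperidol 1. Without haloperidol 1 alone, r was 0.47 with Egr2 and 0.16 with Egr1. Without haloperidol 1 and clozapine 3, the 2 farthest from the Fos median, r was 0.031 with Egr2 and 0.18 with Egr1. Without clozapine 2 alone, in which Egr2 was high and Fos low, r with Egr2 was 0.90. Within the 6 arrays of low antisense control signal it was 0.91 with Egr2 and 0.81 with Egr1, with exact permutation p-values of 0.0292 and 0.0167 before adjustment. That subset was chosen after seeing the data. It leaves out clozapine 2 and keeps haloperidol 1 and clozapine 3, so these p-values are no independent test of the relation. Egr1 and Egr2 themselves had r = 0.83 and rho = 0.85, with an exact permutation p of 0.00523 and an adjusted p of 0.118 over the 45 pairs. Their r was 0.83 as deviations from the group means (exact permutation within groups, p = 0.0648), 0.85 in the 6 arrays, 0.46 without haloperidol 1 and clozapine 2, and 0.71 to 0.90 with each array left out. Only 0.416% of all probe sets were at least as close to Egr1 as Egr2 was.

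**Figure D3:**
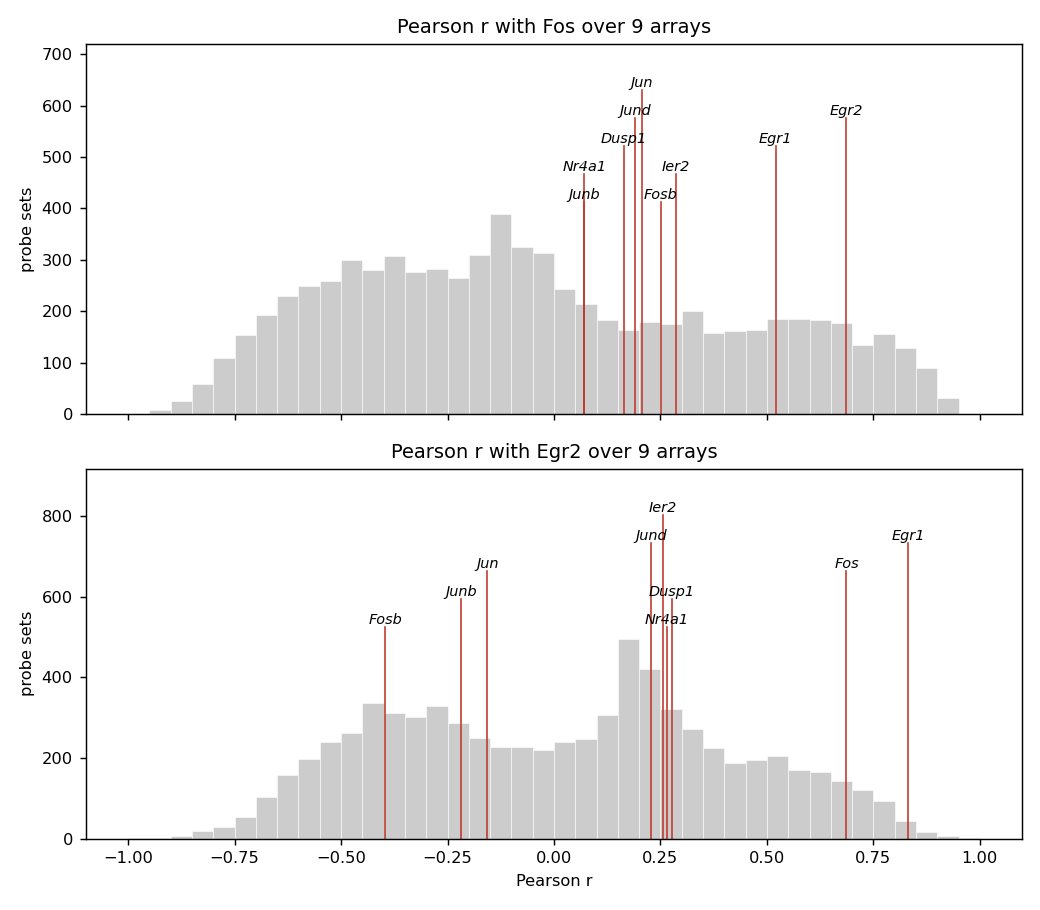
Numbers of probe sets (vertical axes) by their Pearson r over the 9 arrays with Fos (top) and with Egr2 (bottom), with the other immediate early genes marked by lines. All 9 genes lie right of 0 for Fos, led by Egr2 at 0.69 and Egr1 at 0.52, and Egr1 at 0.83 and Fos at 0.69 stand apart from the other 7 for Egr2.

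In limma's model with Fos as a covariate beside the groups, 0 of 7452 probe sets (0%) passed the adjusted threshold and 20.5% had an unadjusted p under 0.05. Of the members, 0 of 9 genes did either in this fit. The slope on Fos was 0.56 ± 0.25 for Egr2 (unadjusted p = 0.0576 and adjusted p = 0.261 by limma) and 0.13 ± 0.12 for Egr1 (adjusted p = 0.601), in log2 units per log2 unit of Fos. When the 3 arrays of high antisense control signal were set against the other 6 as a further term, an alternative added after seeing the data, 1450 probe sets (19.5%) were called, 8.31% with a positive and 11.2% with a negative slope, and still 0 members. At an unadjusted p under 0.05, 35.6% of all probe sets and 0 of the 9 genes by their brightest probe set were found in that fit, while the other Junb probe set had an unadjusted p of 0.0328 (adjusted 0.105 by limma). Egr2 then had a slope of 0.58 and an adjusted p of 0.143, which was 0.0420 without clozapine 2 and 0.120 to 0.709 without any other array. The count of called probe sets was 0 when clozapine 3, haloperidol 1 or control 3, the 3 arrays of highest Fos, was left out, and 608 to 1608 without any other array.

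Other terms changed which members had an unadjusted p under 0.05. With the first principal component as a further term, also added after seeing the data, these were Junb, Nr4a1 and Dusp1, beside 20.3% of all probe sets. Their slopes on Fos were 0.72 for Junb (adjusted p = 0.0651 by limma, against a slope of 0.080 without the term), -0.71 for Nr4a1 (0.0781, against 0.021) and 0.47 for Dusp1 (0.234, against 0.15). With the replicate number as a block they were Jund, at 0.51 (adjusted p = 0.147 by limma, against a slope of 0.25 without the block), and Egr2, at 0.74 (0.204), beside 23.6% of all. Without the treatment groups it was Egr2, at 0.59 (0.212), beside 17.4% of all. None of the members was called in these 3 fits.

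By the rule of highest r with Fos over the 9 arrays, the most like genes were Oga, the enzyme that removes O-GlcNAc from proteins, Vbp1, a prefoldin subunit, and Rida, each at 0.94. Pkp2, a desmosomal plakophilin, Paip2b, an inhibitor of translation, Nhsl2, Ints8 of the Integrator complex, Cat, which encodes catalase, and Asf1a, a histone chaperone, were at 0.93. Kcnma1, the pore of the BK potassium channel, was at 0.92. Their adjusted p-values in the limma model with Fos were 0.0865 to 0.175. The neuronal marker mean was 10.60, 10.73 and 10.33 on the 3 arrays of highest Fos and 10.85 to 11.27 on the other 6. Of its 4 genes Syt1 was lower on the 3, at 9.68, 9.80 and 8.57 against 10.39 to 11.32. So was Nefl, at 9.01, 9.23 and 9.01 against 9.25 to 9.81. Snap25, at 12.98, 13.26 and 12.82, overlapped the 12.91 to 13.21 of the other 6, and Thy1 overlapped as well. The share of all probe sets that were lower on these 3 arrays was not counted. The oligodendrocyte marker mean (4 of 5 listed genes, with Cnp below the filter) was 7.96, 7.77 and 7.78 on the 3 and 7.96 to 8.19 on the 6. Of its 4 genes only Mag was lower on all 3, at 8.08, 7.85 and 7.40 against 8.13 to 8.54. Among the marker classes, the neuronal and oligodendrocyte means had the r with Fos farthest from 0, at -0.76 and -0.71. The part of these markers in the levels of Fos was not tested.

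Junb, by its brightest probe set, and Nr4a1 moved in opposite directions, and both split the arrays into the same 2 sets. Junb read 6.41 to 6.46 on clozapine 2, haloperidol 2 and control 3 and 6.84 to 7.19 on the other 6 arrays. The other Junb probe set did not split them. It read 5.36, 4.82 and 2.50 on those 3 arrays and 5.01 to 5.98 on the other 6, and its r with the brightest set was 0.62. Nr4a1 read 8.73 to 8.90 on those 3 arrays and 7.76 to 8.34 on the other 6. Because the arrays fell into separate sets, no correlation over all 9 is given for this pair. Within the other 6 arrays r was -0.56, with an exact permutation p of 0.244. Each set held arrays of all 3 groups. The antisense control signal was 5.69 to 7.29 on the 3 and 4.42 to 5.0 on the 6, and its part was not tested. Of all tested probe sets, 6.05% were wholly lower on the 3 arrays, as the brightest Junb set was, and 3.9% wholly higher, as Nr4a1 was.

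With Junb as the covariate in limma's model, 1 of 7452 probe sets (0.0134%) was called, and 17.9% had an unadjusted p under 0.05. The slope of Nr4a1 on Junb was -1.05 ± 0.19 with an adjusted p of 0.108. With the 2 sets of arrays as a further term the slope was -0.76 ± 0.52, with an adjusted p of 0.99982 by limma. The probe set called, named after its value was seen, was that of Atn1, the transcriptional corepressor atrophin-1, with a slope of 2.65 and an adjusted p of 0.00900. That call ended with the sets of arrays as a further term (0 called, adjusted p = 0.99982 by limma) and with the first principal component as a term (0 called, 0.121). It also ended without clozapine 1, haloperidol 2 or any 1 of the 3 controls (0 called, adjusted p = 0.0588 to 0.111 by limma). Without the treatment groups in the model 16 probe sets (0.215%) were called, and without haloperidol 1, 73 were. Microglial markers (7 of 7 listed genes, with Cx3cr1 and Aif1 below the filter) averaged 5.82, 5.85 and 5.70 on the 3 arrays and 5.83 to 6.19 on the other 6. The 2 ranges overlap. Microglial markers were the class whose mean had the highest r with Junb, at 0.81. For the genes past the filter r with Junb ran from 0.23 for Csf1r to 0.81 for C1qb and C1qc. The part of these markers was not tested.

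With each of the 8 genes other than Fos and Junb as the covariate, 0 probe sets were called in limma's model. The share of all probe sets at an unadjusted p under 0.05 was 1.42% for Fosb, 0.765% for Jun, 7.46% for Jund, 9.13% for Egr1, 11.7% for Egr2, 20.2% for Nr4a1, 4.86% for Ier2 and 8.47% for Dusp1. Members under that p were Egr2 with Egr1 as the covariate, Junb and Dusp1 with Nr4a1, Junb and Nr4a1 with Dusp1, and Nr4a1 and Dusp1 with Junb, and none passed after adjustment, with adjusted p-values of 0.0886 to 0.544.

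Dusp1 had a positive r with Junb and a negative r with Nr4a1, neither of which passed after adjustment. Its r with Junb was 0.67 (rho = 0.62), with an exact permutation p of 0.0357 and an adjusted p of 0.332, and 0.65 within the 6 arrays of low antisense control signal. Without haloperidol 2 and clozapine 2 it was 0.80. With Nr4a1 its r was -0.58 (rho = -0.57, exact permutation p of 0.105, adjusted 0.677) and -0.71 within the 6 arrays. With the sets of arrays as a further term in limma's model, the slope of Dusp1 on Junb was 0.22 ± 0.52 (adjusted p = 0.99982), against 0.48 ± 0.19 without it. On Nr4a1 it was -0.15 ± 0.38 (adjusted p = 0.99932 by limma), against -0.41 ± 0.17. Fosb and Junb had r = 0.68 (rho = 0.78, exact permutation p of 0.0317, adjusted 0.332), 0.63 within the 6 arrays and 0.38 without clozapine 2 and clozapine 1. Ier2 and Dusp1 had r = 0.68 but rho = 0.33 (exact permutation p of 0.0749, adjusted 0.561), and r was -0.17 without haloperidol 2. Of the 44 pairs other than Junb with Nr4a1, 32 were positive with a median r of 0.18, 4 had an exact permutation p under 0.05, and 0 passed after adjustment over the 45.

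**Figure D4:**
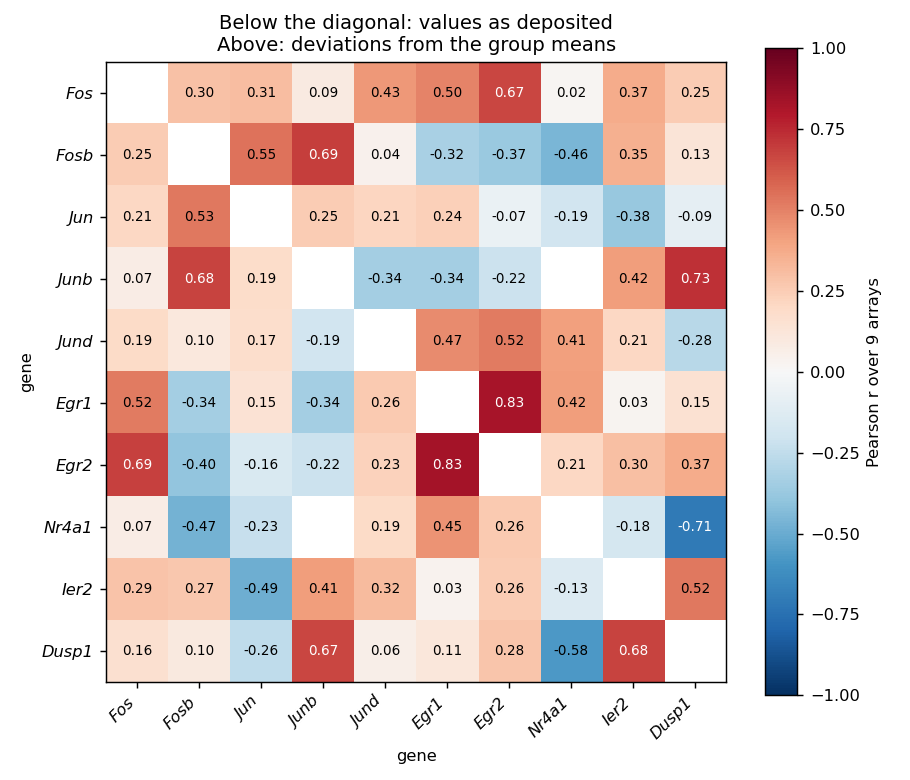
Pearson r between the 10 genes over 9 arrays, for the deposited values below the diagonal and for deviations from the group means above it, with blank cells for Junb with Nr4a1, whose arrays fell into 2 sets. Among the pairs shown, Egr1 with Egr2 is the strongest at 0.83 in both forms, followed below the diagonal by Fos with Egr2 at 0.69 and above it by Junb with Dusp1 at 0.73.

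**Figure D5:**
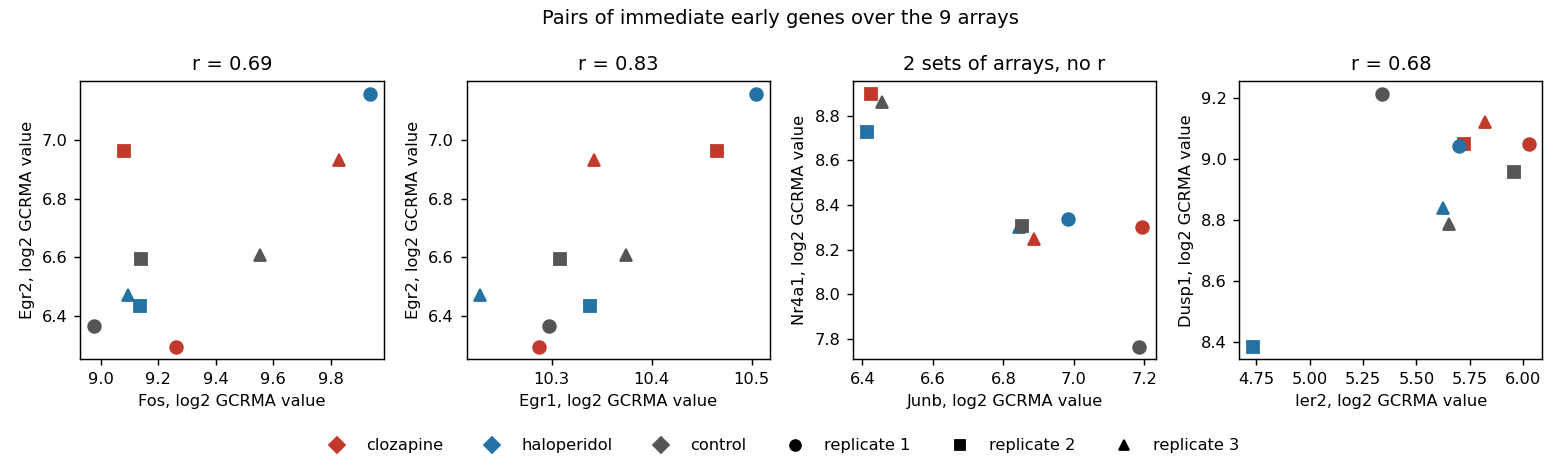
Log2 GCRMA values of 4 pairs of genes, 1 point per array, with colour giving the group and the marker the replicate. Haloperidol 1 and clozapine 3 carry the relation of Fos with Egr2, clozapine 2, haloperidol 2 and control 3 sit apart for Junb and Nr4a1, and haloperidol 2 alone carries that of Ier2 and Dusp1.

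Other genes of the same response were measured from lists chosen with earlier results known. Of 59 listed activity-regulated genes, 44 were named on the array and 33 passed the filter. Of the 33, 20 lay above the controls with clozapine and 21 with haloperidol, where 49.5% and 46.4% of all probe sets did, and 0 were called in either contrast. In the model with Fos, 0 were called and 6 of the 33 had an unadjusted p under 0.05, beside 20.5% of all probe sets. Homer1, a postsynaptic scaffold with an activity-induced short form, had a slope of -0.84 (adjusted p = 0.0865 by limma), Nr4a2, a relative of Nr4a1, -1.01 (0.0984), Rgs4, a regulator of G protein signalling, -1.57 (0.187), and Ptgs2, the inducible cyclooxygenase, 0.52 (0.164). By the F test over the groups the lowest p-values were those of Ccn2, Klf6 and Nr4a2, with adjusted p-values of 0.99986 by limma, and Nr4a2 averaged 6.37 with clozapine, 6.55 with haloperidol and 5.76 in controls.

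Of the kinases and transcription factors upstream of these genes, 18 passed the filter, 11 lay above the controls with clozapine and 10 with haloperidol, and 0 were called. Camk4, a nuclear calcium-dependent kinase that acts on CREB, had a slope on Fos of -1.20 (adjusted p = 0.0865 by limma), Prkaca, the catalytic subunit of protein kinase A, -1.31 (0.0952), Mapk10 -0.38 (0.169) and Mef2d 0.45 (0.183). The lowest F test values were those of Mef2a, Rps6ka3 and Mef2c, which differed by 0.25, -0.22 and 0.42 with haloperidol, each with an adjusted p of 0.530. Of 13 genes of cofactors and feedback, 4 lay above with clozapine and 7 with haloperidol, and 0 were called. There Tob1, an antiproliferative regulator, had a slope of 1.12 on Fos (0.0931) and Nab1, a corepressor of the Egr proteins, 0.98 (0.132), while Id3 and Zfp36l2 were at -0.45 and 0.80. Rxrb, Id1 and Dusp8 had the lowest F test values of that list and differed by -0.26, 0.42 and -0.09 with haloperidol.

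Of 11 clock genes, 7 lay above the controls with each drug and 0 were called. Cry1, a clock repressor, had a slope on Fos of 1.32 (adjusted p = 0.0865 by limma) and Cry2, its relative, -0.88 (0.196), and Tef and Bhlhe40 were at -0.33 and 0.38. When the sets of arrays were a further term, Cry1 and Cry2 were both called, with slopes of 1.24 and -1.01, as were 5 of the 33 activity-regulated genes, 6 of the 18 upstream genes and 3 of the 13 cofactors, beside 19.5% of all probe sets. The 3 genes with the lowest F test values, Dbp, Per2 and Nfil3, had an adjusted p of 0.99986 in that test. They differed from controls by 0.74, 0.79 and -0.39 with clozapine, each with an adjusted p of 0.99997 by limma. With haloperidol they differed by 0.83, 0.94 and -0.53, each with an adjusted p of 0.530.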

How the data were processed

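The deposited table holds log2 values per probe set, which the authors made with GCRMA, per the submitters' processing notes, and its version is not given in the sources used here. GCRMA corrects background from probe sequence, normalises arrays to each other and summarises each set, and it draws unexpressed sets towards a floor. The number of arrays limits the precision.

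Of 12488 probe sets, 66 were Affymetrix controls, 10833 carried 1 symbol, 396 several and 1193 none. Probe sets with a mean over 9 arrays above the 40th percentile (log2 3.448) were tested, 7453 in all. A gene with several probe sets was represented by the brightest.

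Contrasts were fitted to all 9 arrays with limma 3.58.1 in R 4.3.3 (lmFit, eBayes, 6 residual and 2.03 prior degrees of freedom), two-sided, with Benjamini-Hochberg adjustment over 7453 probe sets and a threshold of 0.05. Covariation was fitted with a member as a covariate beside the group, adjusted over 7452 probe sets. Pearson r and Spearman rho were tested by exact permutation of the 9 arrays, and deviations from group means within groups, where the smallest possible p is 0.00463. They used scipy 1.17.1 and pandas 2.3.3 in Python 3.11.15, and figures matplotlib 3.10.9. The scripts were tested on simulated data.

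The members and lists were chosen with earlier results of these data known. Named genes were all members, the 10 genes with the highest r with Fos, and up to 4 genes of each other list by the Fos model and 3 by the F test. Promoters came from RefSeq GRCm38.p6. That of Egr1 was not used here, and no entry was found for Ier2. Alternatives covered the filter, a floor, the scaling, the prior, the arrays fitted, the replicate number as a block, other probe sets and each array left out. Terms for the first principal component and for the 3 arrays of highest antisense control signal were added after seeing the data. Same-numbered arrays of different groups had correlations of deviations from -0.60 to 0.70, and differently numbered ones from -0.66 to 0.66. These values cannot tell whether animals of the same number were handled together.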

Additional observations from a re-analysis of the deposited data

How the results depend on the processing

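The counts of called probe sets were 0 in every contrast and in the F test under each alternative run. In the model with Fos they were 0 except with the array set by antisense controls as a further term, which called 1450, and 0 to 1608 with 1 array also left out. Junb in place of Fos called 1, and 0 to 73 with other terms or 1 array left out. The cause was not tested. The filter at the 60th percentile left no value for Fosb. With the replicate number as a block the counts of calls were 0 and r of Fos with Junb was -0.24. The group differences are the same with and without that block, since each number holds 1 array of each group.

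Differences near 0 turned their sign under some settings. With arrays centred on their medians, haloperidol minus control was 0.070 for Fosb, 0.10 for Jun and 0.018 for Junb, and clozapine minus haloperidol was -0.098 for Fos, -0.0097 for Junb, -0.091 for Egr1, -0.056 for Egr2 and -0.071 for Nr4a1. With quantile normalization, clozapine minus control was -0.017 for Junb and haloperidol minus control -0.0053 for Egr1. In the 6 arrays with low antisense controls, clozapine minus control was 0.078 for Fosb and -0.0023 for Dusp1, haloperidol minus control was 0.016 for Ier2, and clozapine minus haloperidol was 0.11 for Fosb, -0.052 for Egr1, -0.20 for Egr2 and -0.044 for Nr4a1. There r of Fos with Junb was -0.24. The other probe sets gave haloperidol minus control values of 0.80 for Junb, and of -0.090 for Fos and -0.075 for Egr1, whose other sets lay below the filter, so that their sign says nothing of the genes. Without the 2 arrays farthest from the Fos median, r of Fos was -0.33 with Junb and -0.28 with Dusp1.

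With each array left out in turn, clozapine minus control ranged from -0.052 to 0.33 for Fos, -0.18 to 0.088 for Fosb, -0.18 to 0.21 for Junb, -0.012 to 0.077 for Egr1, -0.10 to 0.45 for Nr4a1 and -0.014 to 0.20 for Dusp1. Haloperidol minus control ranged from -0.11 to 0.33 for Fos, -0.085 to 0.14 for Jun, -0.27 to 0.092 for Junb, -0.043 to 0.095 for Egr1, -0.071 to 0.29 for Egr2, -0.13 to 0.42 for Nr4a1 and -0.47 to 0.014 for Ier2. Clozapine minus haloperidol ranged from -0.22 to 0.27 for Fos, -0.15 to 0.12 for Fosb, -0.090 to 0.29 for Junb, -0.057 to 0.081 for Egr1, -0.084 to 0.28 for Egr2 and -0.18 to 0.16 for Nr4a1. The r of Fos ranged from -0.065 to 0.37 with Jun, -0.091 to 0.30 with Junb, 0.16 to 0.78 with Egr1, 0.47 to 0.90 with Egr2, -0.28 to 0.25 with Nr4a1 and -0.029 to 0.39 with Dusp1.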
